A study of Homo sapiens with 12 samples.

Results

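The 51 genes described here are ribosome biogenesis factors, proteins that process ribosomal RNA and assemble the ribosomal subunits. They were taken from the table of counts by their names, which gave 51 of its 20212 genes. For 49 of them the gene name was found as written, and for BOP1 and PES1, whose names a spreadsheet had rewritten, the Ensembl identifier was used. The counts come from PANC-1, an established human pancreatic cancer cell line that the study describes as lacking the translation repressor 4EBP1. One group of 3 cultures received DMSO, the vehicle, and the other group of 3 cultures received 50 nM rapamycin, an inhibitor of the mTORC1 kinase complex, and was collected after 60 min. Each culture gave 1 library of ribosome footprints (RF, the mRNA fragments that ribosomes protect from nuclease) and 1 library of total RNA. The comparison asks whether inhibition of mTORC1 alters the translation of these mRNAs, and translational efficiency (TE) is the RF level divided by the total RNA level.

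A ribosome is built mostly in the nucleolus, where RNA polymerase I makes a long precursor of the ribosomal RNAs. Small nucleolar ribonucleoprotein particles (snoRNPs) modify the precursor, the small subunit processome folds and cuts its first part, and separate sets of factors mature the 40S and 60S subunits and take them to the cytoplasm. Growth signals through mTORC1 and MYC are known to raise the output of this pathway, and MYC binds the E-box sequence in DNA. Many mRNAs of ribosomal proteins start with a terminal oligopyrimidine (TOP) motif, through which mTORC1 is known to control their translation.

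By role, the members were divided into 7 sets. The 4 box C/D snoRNP proteins were FBL, NOP56, NOP58 and RRP9, and the 4 box H/ACA snoRNP proteins were DKC1, GAR1, NHP2 and NOP10. The 5 nucleolar chaperones and scaffolds were NCL, NPM1, NOLC1, MYBBP1A and DDX21. The 10 subunits and helpers of the small subunit processome were HEATR1, WDR43, WDR75, UTP20, PWP2, TBL3, NOL6, NOP14, NAT10 and DDX10, and the 8 late 40S factors were BYSL, TSR1, LTV1, NOB1, PNO1, RIOK1, RIOK2 and RRP12. The 14 factors of nucleolar 60S assembly were NOP2, NOP16, BOP1, PES1, WDR12, RRP1, RRP1B, EBNA1BP2, BRIX1, RRS1, DDX18, DDX56, LAS1L and MRTO4, and the 6 GTPases and export factors of the 60S subunit were GNL2, GNL3, GNL3L, GTPBP4, NMD3 and SDAD1. Each of the 51 passed the filter of at least 10 RF and 10 RNA counts.

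RF counts per library ranged from 278835 to 1574723 and total RNA counts from 78081241 to 94293744. Where a gene had 0 counts, up to 3 could not be told from none, a limit of 1.91 to 10.8 CPM (counts scaled to library size) for RF and of no more than 0.0384 CPM for total RNA. These limits and the tests on reads cover counting of reads without molecular identifiers. Total RNA libraries 1 and 2 of DMSO detected 16840 and 16858 genes, against 19751 to 19847 in the other RNA libraries. The cell type was checked on 7 duct and epithelial markers. The keratins KRT8, KRT18 and KRT19 had means of 1372 to 1739 FPKM in DMSO (fragments scaled to transcript length and library size), whereas SOX9 had 20.8, KRT7 11.5, CDH1 7.58 and EPCAM 4.81 FPKM, the last 2 below the median of all tested genes. Against these values, the highest value of any marker of blood, fibroblast, acinar or beta cells in any library was 1.53 FPKM, for COL1A1.

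A pair of sequence features bears on these genes, the E-box near the start of transcription and the TOP motif at the 5′ end of the mRNA. The E-box CACGTG, which reads the same on both strands, was in 19 of the 44 promoters of members found in RefSeq (43.2%), where a promoter is 250 bases before to 50 bases after the start of a gene. It was in 9.96% of the promoters of 10551 tested genes and in 7.26% of all 35116 promoters. In 16 of the 19 promoters its position was within 40 bases of the start site. The motif is shown in capitals below with its flanks for the members that are described with values in every culture and hold it, FBL, RRP9, MYBBP1A, NOL6, NAT10 and GNL2.
FBL, chr19:39846358-39846383 of GRCh38.p14, minus strand: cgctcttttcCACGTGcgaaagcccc
RRP9, chr3:51941894-51941919 of GRCh38.p14, minus strand: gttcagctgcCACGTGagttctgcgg
MYBBP1A, chr17:4555342-4555367 of GRCh38.p14, minus strand: ggccggagcaCACGTGtttcgtgttt
NOL6, chr9:33473896-33473921 of GRCh38.p14, minus strand: catttccgccCACGTGggaagctatg
NAT10, chr11:34105604-34105629 of GRCh38.p14, plus strand: tgcgcttgcgCACGTGctgtctacca
GNL2, chr1:37595919-37595944 of GRCh38.p14, minus strand: acgtcgtgcaCACGTGgtccggcgtg
The match describes these letters and says nothing of binding in these cells.

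A TOP motif was taken as C and then 4 or more pyrimidines, read from where an isoform begins in the annotation. The isoform read was the one with the highest mean FPKM among those annotated as protein coding. It opened 3 of the 51 members (5.88%), of 4.2% of 12860 tested genes and of 37 of 79 cytosolic ribosomal protein genes (46.8%). Counting any protein-coding isoform with an FPKM value gave 7 members (13.7%), 11.3% of tested genes and 82.3% of the ribosomal protein genes. The members with the motif were DDX21, NOB1 and RRS1. Below are the first bases of DDX21 and NOB1 with the pyrimidine run in capitals, beside NCL and NPM1, abundant members without the run.
DDX21, transcript ENST00000354185, chr10:70715926-70744824 of GRCh37, plus strand: CTCTTCCTCTCCacgcggttgagaa
NOB1, transcript ENST00000268802, chr16:69775774-69788829 of GRCh37, minus strand: CTCTCacgcagccaacatggctcca
NCL, transcript ENST00000322723, chr2:232318242-232329195 of GRCh37, minus strand: agtctcgagctctcgctggccttcg
NPM1, transcript ENST00000517671, chr5:170814120-170837887 of GRCh37, plus strand: gggcgatgtccttgctaatttggag
Annotated ends can differ from the ends used in PANC-1 cells. The isoform read also need not carry most of a gene's RNA. For NOP16 it had a mean of 2.01 FPKM, against 41.1 FPKM for the gene in DMSO, whereas for NOP10 these values were 183 and 189 FPKM.

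In DMSO, the members were abundant mRNAs with an ordinary ribosome load. Their median total RNA level per length was 38.6 FPKM, against 11.05 FPKM over all tested genes, and 50 of the 51 lay above that median. NPM1, a histone and ribosomal protein chaperone of the nucleolus, had the highest level with 1899 ± 59.1 FPKM (SD, n = 3), followed by FBL with 1434 ± 103 FPKM (SD, n = 3). NPM1 has processed pseudogenes, and its reads that align to several places were not counted. NCL had 270 ± 8.97 FPKM (SD, n = 3) and NOP56 had 242 ± 3.21 FPKM (SD, n = 3). The cultures of these neighbours in the order did not overlap. The lowest level was 9.09 ± 0.0914 FPKM (SD, n = 3) for GAR1, a subunit of the box H/ACA snoRNP.

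The ratio of RF CPM to RNA CPM in DMSO had a median of 0.636 over the members and 0.656 over all tested genes, with 23 members above and 28 below the latter. Over 81 cytosolic ribosomal protein genes the median ratio was 1.04. Among the members with the most reads, FBL had a ratio of 1.59 ± 0.175 (SD, n = 3), NCL of 1.24 ± 0.112 (SD, n = 3) and NPM1 of 0.450 ± 0.0614 (SD, n = 3). The ratios of NPM1 lay below those of NCL and FBL in every DMSO culture. Reads of NPM1 that align to several places were not counted, and the part of this in its ratio was not tested. HEATR1, a scaffold of the small subunit processome, had the lowest ratio with 0.243 ± 0.0319 (SD, n = 3). GAR1 had the highest mean, 3.24 ± 2.54 (SD, n = 3), with single values of 4.59, 0.311 and 4.81 that rested on 18, 3 and 81 RF counts.

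**Figure D1:**
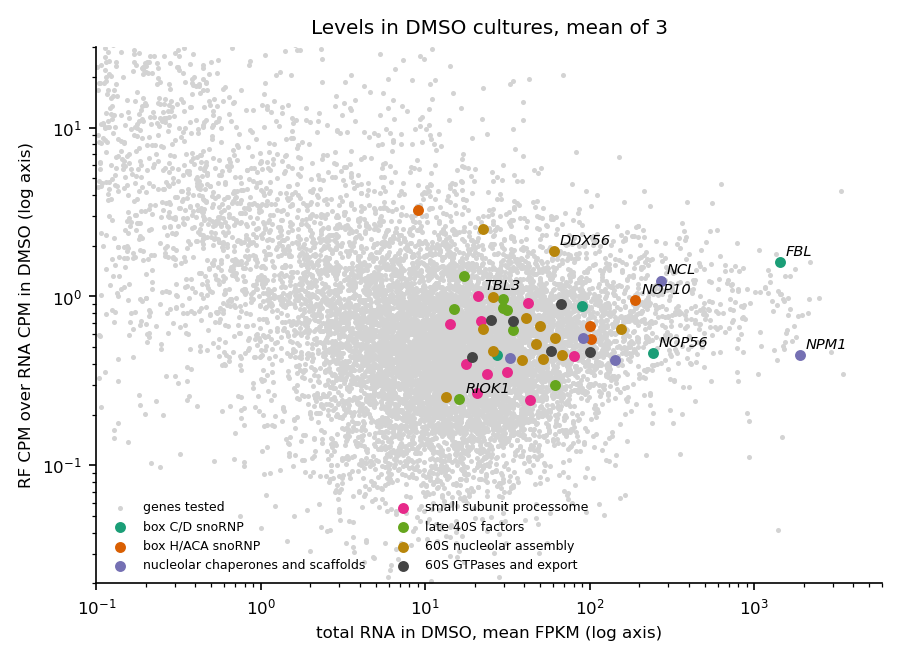
Total RNA level (mean FPKM of 3 DMSO cultures, log axis) against the ratio of RF CPM to RNA CPM (mean of the same cultures, log axis) for the 51 members, colored by role, over the tested genes in grey. The members lie to the right of the bulk of genes, from 9.09 FPKM (GAR1) to 1899 FPKM (NPM1), and over the middle of its height; genes outside the axes are not drawn.

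After rapamycin, total RNA of the members was lower by a small amount in nearly the whole group, and no single member passed the test. The fitted log2 fold change was below 0 for 49 of the 51 members (96.1%), against 46.8% of all 13329 tested genes. The median was -0.06 on the log2 scale (a change of -4.34%), against 0.01 (0.410%) over all tested genes, and the extremes were -0.21 for NCL and 0.02 for TBL3. With edgeR's quasi-likelihood F test, 0 members were lower or higher at a Benjamini-Hochberg adjusted p under 0.05, nor was any tested gene (percent called 0.0 in each direction). This background rests on DMSO culture 3, without which edgeR called 6 genes lower and 875 higher, and 0 of them were members. The smallest adjusted p of a member was 0.766 (edgeR), and DESeq2's Wald test also called 0 members (0.03% of all genes lower and 0.188% of them higher). At an unadjusted p under 0.05 in edgeR, 12 members were lower and 0 higher, against 2.51% and 3.32% of all genes. Without DMSO culture 2 the former count was 7, and the share of all genes in that fit is not given here. In 18 members (35.3%) the highest rapamycin culture was still under the lowest DMSO culture, and in 0 the reverse held, against 6.61% and 8.22% of all genes. Among the 50 members with at least 100 RF counts, 17 were lower in every rapamycin culture and 0 higher, against 9.48% and 4.27% of the 6131 genes with that many.

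The lower values were in each of the 3 rapamycin cultures, and most marked in culture 2. Relative to the mean of the DMSO cultures on the log2 scale, the members' median was -0.03, -0.10 and -0.04 in rapamycin cultures 1, 2 and 3, and between -0.01 and 0.01 in the DMSO cultures. In the same rapamycin cultures, 42, 45 and 45 members were below the DMSO mean, against 48.2%, 46.7% and 47.2% of all genes. Rapamycin culture 2 held the lowest total RNA value of 31 members, against 26% of all genes, and it is also the RNA library with the fewest counts. Without that culture, 46 members were fitted lower, against 49.2% of all genes, with a median of -0.04. The share of all RNA counts that fell on the 51 members was 1.07% to 1.08% in the DMSO libraries and 0.998% to 1.06% in the rapamycin libraries. A lower level in every cell and a lower level in some of the cells cannot be told apart in these bulk libraries. DMSO libraries 1 and 2 are those that detected fewer genes, and the part of this in the result was not tested. Leaving out DMSO culture 1, 2 or 3 gave 49, 47 and 49 members fitted lower.

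**Figure D2:**
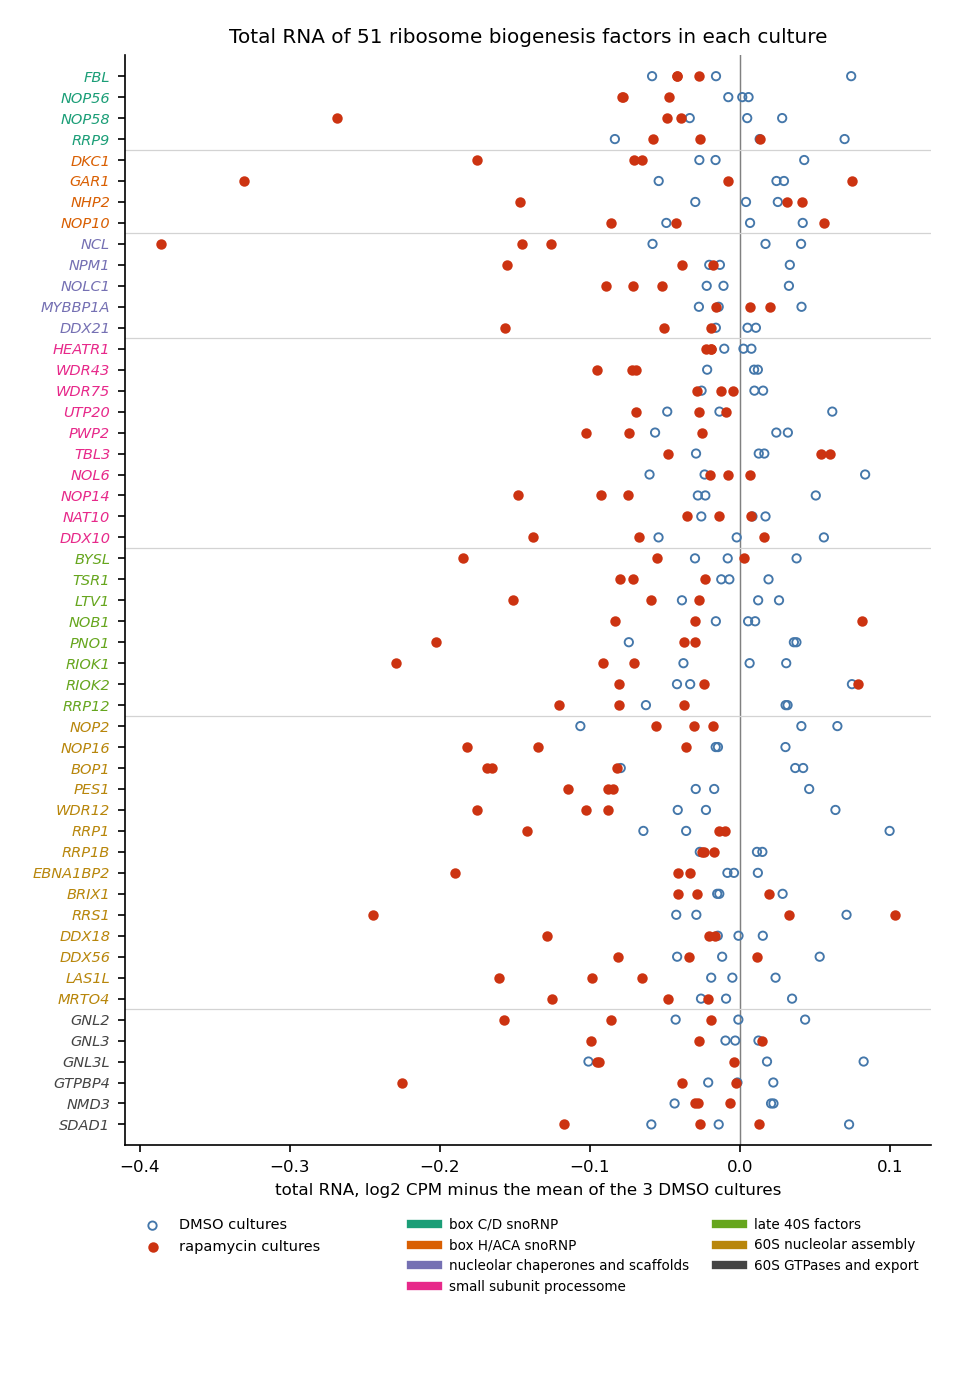
Total RNA of each of the 51 members (rows, colored and divided by role) in each culture, as log2 CPM minus the mean of the 3 DMSO cultures; open circles are the 3 DMSO cultures and filled circles the 3 rapamycin cultures. Most filled circles lie left of 0, and in 18 rows, such as NCL, PES1 and WDR12, all 3 lie left of every open circle.

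Among the nucleolar chaperones and scaffolds, 4 of 5 members had a lower fitted total RNA and 0 passed the test. NCL (ENSG00000115053, chromosome 2, 232318242 to 232348352), the nucleolin protein that binds the ribosomal RNA precursor, showed the largest difference of all members. Its total RNA was 631, 621 and 589 CPM in DMSO cultures 1, 2 and 3 and 562, 469.7 and 555 CPM in rapamycin cultures 1, 2 and 3. Every rapamycin culture was below every DMSO culture, with the lowest value in rapamycin culture 2. The fitted log2 change was -0.21 (SE 0.065, adjusted p = 0.766, edgeR), or -13.8%, and -0.14 without rapamycin culture 2. An exact permutation test of the 6 values gave a two-sided p of 0.1, the lowest that 3 cultures against 3 allow, which follows from their separation. NPM1 (ENSG00000181163, chromosome 5, 170814120 to 170838814) had 1959, 1949 and 2023 CPM in DMSO and 1952, 1776 and 1925 CPM in rapamycin, so the groups overlapped. DDX21 (ENSG00000165732, chromosome 10, 70715891 to 70744824), an RNA helicase of the nucleolus, had 817, 814 and 802 CPM in DMSO and 799.9, 727 and 783 CPM in rapamycin, and the groups did not overlap. NOLC1, a scaffold of snoRNP assembly, was also lower in every rapamycin culture, with a fitted log2 change of -0.07 (SE 0.030). MYBBP1A (ENSG00000132382, chromosome 17, 4442192 to 4458681), a nucleolar protein that binds MYB, was one of the 2 members that were not fitted lower. It had 126, 130.4 and 124 CPM in DMSO and 127, 128 and 125 CPM in rapamycin, a log2 fold change of 0.00 (SE 0.032, adjusted p = 0.977, edgeR), whose sign turned under 8 of 14 alternatives.

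All 14 factors of nucleolar 60S assembly had a lower fitted total RNA, with a median of -0.06, and 7 of them were lower in every rapamycin culture. These 7 were NOP16, BOP1, PES1, WDR12, EBNA1BP2, DDX18 and LAS1L. BOP1, PES1 and WDR12 are the 3 subunits of the PeBoW complex, which is needed to mature the large subunit's ribosomal RNA. WDR12 (ENSG00000138442, chromosome 2, 203738984 to 203879521) had 97.8, 92.2 and 91.0 CPM in DMSO and 87.2, 82.9 and 88.1 CPM in rapamycin, a fitted log2 change of -0.12 (SE 0.040, adjusted p = 0.766, edgeR). PES1 differed by -0.10 (SE 0.032) and BOP1 by -0.14 (SE 0.054). The other 2 subunits thus stood on the same side of DMSO as WDR12 in each rapamycin culture. LAS1L (ENSG00000001497, chromosome X, 64658429 to 64754690), a subunit of the nuclease complex that cuts within the second internal spacer of the precursor, had 76.0, 77.5 and 75.3 CPM in DMSO and 72.9, 68.2 and 71.2 CPM in rapamycin. The fit gave a log2 change of -0.11 (SE 0.036, adjusted p = 0.766, edgeR). NOP16 (ENSG00000048162, chromosome 5, 175810949 to 175815928), a 60S assembly factor, had 55.5, 55.4 and 57.2 CPM in DMSO and 51.04, 49.39 and 54.64 CPM in rapamycin, all lower in rapamycin. DDX56 (ENSG00000136271, chromosome 7, 44605403 to 44614650), a helicase of late 60S assembly, had 144, 154 and 147 CPM in DMSO and 140.4, 145 and 149.7 CPM in rapamycin, with overlapping groups.

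In the small subunit processome, 9 of 10 members were fitted lower with a median of -0.03, and HEATR1, WDR43 and NOP14 were lower in every rapamycin culture. The fitted log2 fold change was -0.10 (SE 0.037) for NOP14, -0.08 (SE 0.028) for WDR43 and -0.02 (SE 0.027) for HEATR1. TBL3 (ENSG00000183751, chromosome 16, 2022054 to 2032930), a WD repeat subunit of the processome, was the other member not fitted lower. Its total RNA was 57.5, 57.3 and 55.7 CPM in DMSO and 54.9, 59.2 and 59.0 CPM in rapamycin, with overlapping groups and a fitted log2 change of 0.02 (SE 0.040, adjusted p = 0.864, edgeR). All 8 late 40S factors were fitted lower with a median of -0.08, and TSR1 and RIOK1 were lower in every rapamycin culture. RIOK1 (ENSG00000124784, chromosome 6, 7390026 to 7418270), an atypical kinase that acts on the last 40S precursor, had 48.1, 49.6 and 50.4 CPM in DMSO and 47.0, 42.1 and 46.3 CPM in rapamycin. TSR1 (ENSG00000167721, chromosome 17, 2225690 to 2239951), a GTPase-like factor on the cytoplasmic 40S precursor, had 149, 152 and 148 CPM in DMSO and 147, 142 and 142 CPM in rapamycin.

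All 8 snoRNP proteins were fitted lower in total RNA, with a median of -0.05 in each of the 2 classes of particle. The box C/D particles guide methylation of the ribosomal RNA and the box H/ACA particles guide its pseudouridylation. NOP56 (ENSG00000101361, chromosome 20, 2633239 to 2639039), a core protein of box C/D particles, had 285, 282 and 284 CPM in DMSO and 275, 269 and 269 CPM in rapamycin, and every rapamycin culture was lower. The fit gave a log2 change of -0.07 (SE 0.028, adjusted p = 0.766, edgeR). NOP58, its partner in the particle, differed by -0.11 (SE 0.057) and was also lower in every rapamycin culture. FBL (ENSG00000105202, chromosome 19, 40325098 to 40337019), the methyltransferase of these particles, had 1351, 1481 and 1391 CPM in DMSO and 1367, 1380 and 1367 CPM in rapamycin, and the groups overlapped. DKC1 (ENSG00000130826, chromosome X, 153991017 to 154005964), the pseudouridine synthase of box H/ACA particles, had 260.5, 271 and 258 CPM in DMSO and 252, 233 and 251 CPM in rapamycin. Every rapamycin culture of DKC1 was lower, with a fitted log2 change of -0.10 (SE 0.038, adjusted p = 0.766, edgeR). The 6 GTPases and export factors of the 60S subunit were all fitted lower, with a median of -0.05, and 0 of them were lower in every rapamycin culture. GNL2 (ENSG00000134697, chromosome 1, 38032417 to 38061538), a nucleolar GTPase, had 170.1, 160.3 and 165 CPM in DMSO and 156, 148 and 163 CPM in rapamycin, where rapamycin culture 3 lay within the DMSO range.

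Genes of the same pathway that are not members had the same direction in total RNA. Of 34 other small subunit factors, 30 were fitted lower with a median of -0.06, and of 32 other large subunit factors, 28 were fitted lower with a median of -0.05. All 14 genes of the RNA exosome, which trims the precursor, and 13 of 15 genes of the RNA polymerase I machinery were fitted lower, with medians of -0.05 and -0.04. Of 81 tested cytosolic ribosomal protein genes, 72 were fitted lower, with a median of -0.04. The same edgeR test called 0 genes of these lists in either direction. At an unadjusted p under 0.05 in edgeR, 8, 4, 1, 0 and 7 genes of the 5 lists were lower, in the order given, and 0 higher. Among the members, the median was -0.06 for the 19 promoters with an E-box and for the 25 without one, and 18 and 24 of them were fitted lower. In every rapamycin culture, 4 of the 19 and 10 of the 25 were lower, against 6.61% of all genes. The medians in TE were -0.19 with and 0.02 without an E-box. These differences were not tested. The split rests on 1 promoter per gene, and GNL3, with CACGTG at the 5′ end of an isoform, was counted among the 25.

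**Figure D3:**
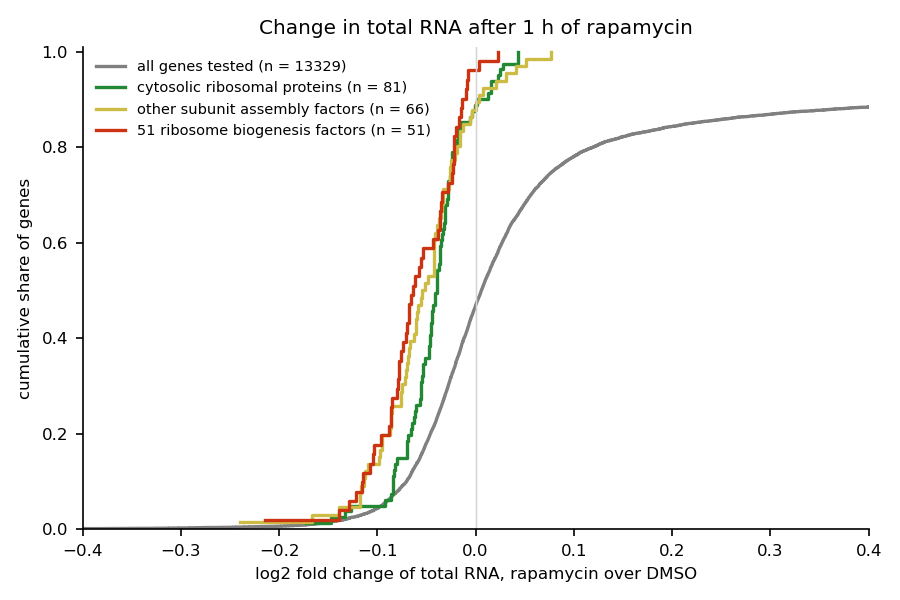
Cumulative share of genes (y axis) by log2 fold change of total RNA, rapamycin over DMSO (x axis, shown from -0.4 to 0.4), for the 51 members, 66 other small and large subunit assembly factors, 81 cytosolic ribosomal protein genes and all 13329 tested genes. The 3 lists of the pathway cross 0 near the top of the axis (96.1% of the members lie below 0), whereas the line of all genes crosses it at 46.8%; genes beyond the axis limits count in the shares but are not drawn.

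Translational efficiency of the members showed no common direction after rapamycin. The fitted log2 fold change in TE was below 0 for 25 members, against 53.7% of all genes, and above 0 for 26, with a median of 0.02 against -0.06 over all tested genes, and it ranged from -0.84 (SDAD1) to 1.02 (RIOK1). The split moved with single cultures, from 24 members fitted lower without DMSO culture 3 to 32 without DMSO culture 2. The edgeR test of TE, adjusted over all genes, called 0 members lower and 0 higher (percent called over all genes 0.0 in each direction). Without DMSO culture 3 it called 374 genes lower and 70 higher, again with 0 members among them. At an unadjusted p under 0.05 in edgeR, 0 members were lower and 0 higher, against 6.42% and 6.17% of all genes. Leaving out 1 culture raised these counts to at most 4 lower (without DMSO culture 2 or rapamycin culture 1) and 3 higher (without DMSO culture 3). The shares of all genes at an unadjusted p in these fits are not given here. With an adjusted p under 0.05 as the limit, DESeq2's Wald test called 3 members lower and 2 higher, against 4.55% and 5.14% of all genes. These were WDR75 (adjusted p = 0.00296), SDAD1 (adjusted p = 0.0403) and NMD3 (adjusted p = 0.0480) in the lower direction, all from DESeq2. RIOK1 (adjusted p = 0.0152) and NOP16 (adjusted p = 0.0345) were called in the higher direction by DESeq2. The rapamycin cultures lay wholly below the DMSO cultures in 2 members, WDR75 and RRP9, and wholly above in NOP16 and NAT10, against 6.19% and 4.8% of all genes. The members held a median of 288 RF counts over the 6 libraries. The median 95% interval of the TE change reached 0.77 to either side on the log2 scale, against 0.09 for total RNA and 0.925 for RF alone. The TE fit shares 1 spread per gene between RF and RNA libraries, so its intervals may be too narrow. The interval held 0 for all 51 members, which repeats their unadjusted p because it was built from the same F test. The other lists of the pathway had medians of 0.01 (other small subunit factors), -0.08 (other large subunit factors), 0.08 (RNA exosome), 0.12 (RNA polymerase I machinery) and -0.08 (ribosomal proteins) in TE, with 0 genes called in edgeR.

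**Figure D4:**
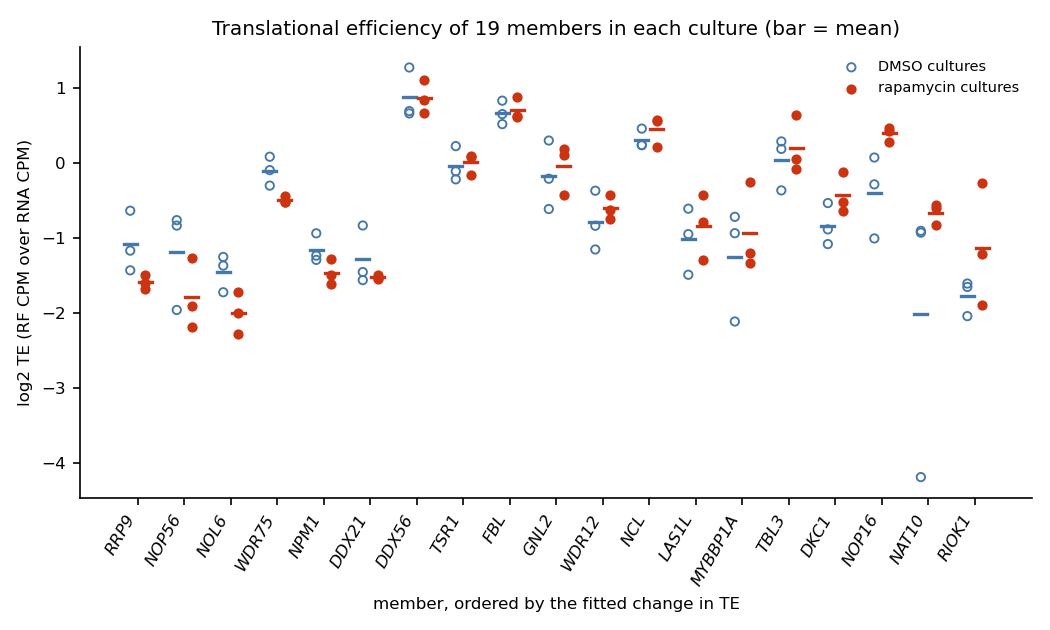
Log2 TE (RF CPM over RNA CPM, with a prior count of 2) of the 19 members described by culture, ordered by the fitted change; open circles are DMSO cultures, filled circles rapamycin cultures and bars their means. The groups separate for RRP9 and WDR75 (rapamycin lower) and for NOP16 and NAT10 (rapamycin higher), and the low DMSO point of NAT10, -4.19, rests on 3 RF counts.

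The box C/D snoRNP proteins stood lowest by role, with a median TE change (log2) of -0.45 over 4 members, of which 3 were fitted lower. All 4 were fitted lower in RF, with a median of -0.49, and differences between roles were not tested. RRP9 (ENSG00000114767, chromosome 3, 51967445 to 51975920), the protein specific to the U3 snoRNP of the processome, had 8, 18 and 58 RF counts in DMSO cultures 1, 2 and 3 and 23, 14 and 6 in rapamycin cultures 1, 2 and 3. Its log2 TE was -1.17, -1.43 and -0.64 in DMSO and -1.60, -1.68 and -1.50 in rapamycin, so the groups did not overlap. The fitted log2 change was -0.70 (95% interval -1.53 to 0.13, adjusted p = 0.475, edgeR), and -0.33 without DMSO culture 3. NOP56 drew 23, 124 and 243 footprint reads in DMSO and 135, 57 and 17 with rapamycin. Its log2 TE was -1.96, -0.84 and -0.76 in DMSO and -1.27, -1.91 and -2.19 in rapamycin, where DMSO culture 1 lay within the range of the rapamycin cultures. The fitted log2 change was -0.65 (95% interval -1.41 to 0.11, adjusted p = 0.468, edgeR), and -1.02 without rapamycin culture 1 but -0.47 without DMSO culture 3. FBL, with 11360 RF counts the best covered member, had a log2 TE of 0.52, 0.83 and 0.65 in DMSO and 0.88, 0.63 and 0.61 in rapamycin. The fit gave a log2 change of 0.04 (95% interval -0.32 to 0.39, adjusted p = 0.954, edgeR), and its sign turned when DMSO culture 1 or rapamycin culture 1 was left out and under TMM over all libraries. Of the box H/ACA proteins, DKC1 had a log2 TE of -0.89, -1.08 and -0.54 in DMSO and -0.12, -0.64 and -0.52 in rapamycin, with overlapping groups. The fit gave a log2 change of 0.42 (95% interval -0.11 to 0.95, adjusted p = 0.501, edgeR), and 0.21 without rapamycin culture 1 or 0.28 without DMSO culture 2.

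In the small subunit processome, 5 members were fitted lower in TE and 5 higher. WDR75 (ENSG00000115368, chromosome 2, 190306172 to 190340278), a subunit of the UTP-A complex that binds the precursor first, drew 45, 98 and 237 footprint reads in DMSO and 123, 86 and 33 with rapamycin. Its RF level was 138, 123 and 161 CPM in DMSO and 102, 104 and 109.8 CPM in rapamycin, while its total RNA was 150.5, 155 and 154 CPM and 150.3, 153 and 152 CPM. All rapamycin cultures were lower in RF, and the groups overlapped in total RNA. The log2 TE was -0.10, -0.30 and 0.08 in DMSO and -0.53, -0.52 and -0.44 in rapamycin, with a fitted log2 change of -0.42 (95% interval -0.89 to 0.04, adjusted p = 0.442, edgeR). An exact permutation test of these 6 values gave a two-sided p of 0.1, the smallest possible, which follows from their separation. NOL6 (ENSG00000165271, chromosome 9, 33461351 to 33473928), a processome subunit, drew 20, 42 and 101 footprint reads in DMSO and 60, 33 and 10 with rapamycin. Its RF level of 61.5, 52.8 and 68.6 CPM in DMSO exceeded 49.7, 39.9 and 33.3 CPM in rapamycin in every culture, and its fitted log2 change in TE was -0.52 (95% interval -1.08 to 0.05, adjusted p = 0.438, edgeR). NAT10 (ENSG00000135372, chromosome 11, 34127164 to 34169217), the acetyltransferase of 18S ribosomal RNA, drew 18, 3 and 85 footprint reads in DMSO and 84, 61 and 18 with rapamycin. Its RF level was 55.4, 3.77 and 57.7 CPM in DMSO and 69.6, 73.8 and 59.9 CPM in rapamycin, higher in every rapamycin culture. The fitted log2 change in TE was 0.86 (95% interval -0.47 to 2.18, adjusted p = 0.601, edgeR), and 0.28 without DMSO culture 2, whose value rests on 3 counts, but 1.69 without DMSO culture 3. TBL3 had a log2 TE of 0.29, 0.19 and -0.37 in DMSO and 0.06, 0.63 and -0.08 in rapamycin, with overlapping groups.

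Of the late 40S factors, 5 of 8 were fitted lower in TE. RIOK1 had the fewest RF counts of all members, 3, 11 and 20 in DMSO and 44, 13 and 3 with rapamycin. The log2 TE was -2.04, -1.61 and -1.66 in DMSO and -0.27, -1.21 and -1.90 in rapamycin, and only rapamycin cultures 1 and 2 were above all DMSO cultures. The fitted log2 change was 1.02 (95% interval -0.08 to 2.11, adjusted p = 0.430, edgeR), and 0.26 without rapamycin culture 1. TSR1 drew 44, 139 and 184 footprint reads in DMSO and 156, 122 and 45 with rapamycin, the most of its role. Its log2 TE was -0.11, 0.22 and -0.22 in DMSO and -0.16, 0.08 and 0.10 in rapamycin, a fitted log2 change of 0.02 (95% interval -0.47 to 0.51, adjusted p = 0.982, edgeR) whose sign changed with the culture left out. NOB1, the nuclease that makes the 3′ end of 18S ribosomal RNA and one of the members with the TOP motif, had 12, 1 and 55 RF counts in DMSO and a fitted log2 change in TE of 0.31 (SE 0.52).

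The factors of nucleolar 60S assembly stood highest by role, with a median TE change (log2) of 0.19. Of the 14 members, 10 were fitted higher, against 46.3% of all genes. The difference from other roles was not tested, and the median of this role without single cultures is not given here. NOP16 drew 14, 20 and 85 footprint reads in DMSO and 72, 53 and 22 with rapamycin. Its RF level was 43.1, 25.1 and 57.7 CPM in DMSO and 59.7, 64.1 and 73.2 CPM in rapamycin, and the groups did not overlap. The log2 TE was -0.29, -1.01 and 0.07 in DMSO and 0.28, 0.43 and 0.47 in rapamycin, a fitted log2 change of 0.70 (95% interval -0.11 to 1.51, adjusted p = 0.465, edgeR), and 0.34 without DMSO culture 2 or 1.13 without DMSO culture 3. The total RNA of NOP16 was lower in every rapamycin culture, as given above, so RF and RNA of this gene stood on opposite sides of DMSO. DDX56, the best covered of the role, had a log2 TE of 0.69, 0.66 and 1.27 in DMSO and 0.84, 1.11 and 0.67 in rapamycin, a fitted log2 change of -0.03 (95% interval -0.55 to 0.48, adjusted p = 0.974, edgeR). WDR12 had a log2 TE of -0.84, -1.15 and -0.37 in DMSO and -0.63, -0.43 and -0.75 in rapamycin, and LAS1L had -0.95, -1.49 and -0.61 in DMSO and -0.79, -0.42 and -1.29 in rapamycin. Both overlapped between the groups. Of the 60S GTPases and export factors, 3 of 6 were fitted lower, and GNL2 had a log2 TE of -0.21, 0.30 and -0.61 in DMSO and -0.42, 0.11 and 0.19 in rapamycin, also with overlap. RRS1, the 60S factor with the TOP motif, differed by 0.55 (SE 0.54). SDAD1 and NMD3, which DESeq2 called, had log2 fold changes of -0.84 (SE 0.47) and -0.52 (SE 0.36) in edgeR.

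NPM1, NCL and DDX21 held the most RF counts after FBL, and 3 of the 5 chaperones and scaffolds were fitted lower in TE. NPM1 had an RF level of 797, 1014 and 856 CPM in DMSO and 801, 624 and 625 CPM in rapamycin. The log2 TE of NPM1 was -1.29, -0.94 and -1.24 in DMSO and -1.28, -1.50 and -1.62 in rapamycin, overlapping between the groups, with a fitted log2 change of -0.31 (95% interval -0.67 to 0.06, adjusted p = 0.474, edgeR), and -0.20 without DMSO culture 2. NCL had an RF level of 741, 730.1 and 807 CPM in DMSO and 832, 692 and 642 CPM in rapamycin. Its log2 TE was 0.24, 0.24 and 0.46 in DMSO and 0.57, 0.56 and 0.22 in rapamycin, a fitted log2 change of 0.15 (95% interval -0.22 to 0.51, adjusted p = 0.771, edgeR). DDX21, a member with the TOP motif, had a log2 TE of -1.56, -1.46 and -0.83 in DMSO and -1.54, -1.54 and -1.49 in rapamycin. DMSO culture 3 stood above the other 5 values, and the log2 fold change was -0.30 (95% interval -0.77 to 0.18, adjusted p = 0.611, edgeR). MYBBP1A had a log2 TE of -0.72, -2.12 and -0.94 in DMSO and -1.33, -1.21 and -0.25 in rapamycin.

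With RF tested alone, 31 members were fitted lower and 20 higher, with a median log2 fold change of -0.06 against 0.02 over all tested genes. The median was -0.18 without DMSO culture 2, -0.16 without rapamycin culture 1, and -0.05 without DMSO culture 3. The edgeR test called 0 members in either direction (percent called over all genes 0.0), and DESeq2's Wald test also called 0 (it called 0.0075% of all genes lower and 0.03% of them higher). At an unadjusted p under 0.05 in edgeR, 0 members were lower and 0 higher, against 1.92% and 1.76% of all genes. The groups separated for WDR75, RRP9 and NOL6 (rapamycin lower) and for NOP16 and NAT10 (rapamycin higher), against 4.21% and 5.24% of all genes. Ranked by edgeR's unadjusted p, the first members in the lower direction were NOP56, with -0.72 (SE 0.38), NPM1, with -0.38 (SE 0.20), and DDX21, with -0.36 (SE 0.25). The value of NOP56 was -1.08 without rapamycin culture 1 and -0.53 without DMSO culture 3. Without DMSO culture 3 that of DDX21 was -0.11. In the other direction NOP16 came first, with 0.62 (SE 0.44), or 0.33 without DMSO culture 2 and 0.96 without DMSO culture 3. The RF change of NAT10 was likewise 0.26 and 1.36 without these cultures. The share of all RF counts on the 51 members was 0.735% to 0.769% in DMSO and 0.734% to 0.763% in rapamycin. Over the members, the coefficient of variation between cultures was 32.6% (DMSO) and 24.4% (rapamycin) at the median for RF, against 2.53% and 3.73% for total RNA. DMSO culture 2 held the lowest RF value of 14 members, among them NAT10 (3 counts) and NOB1 (1 count), against 27.6% of all genes.

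**Figure D5:**
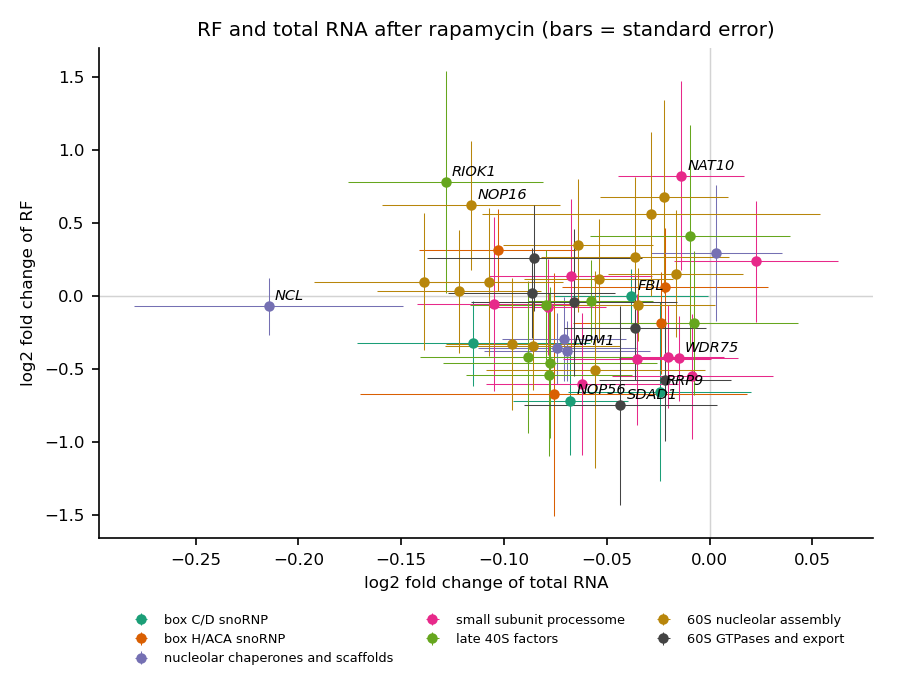
Fitted log2 fold change of total RNA (x axis) against that of RF (y axis) for the 51 members, colored by role, with standard errors as bars; the axes have different scales. The points lie left of 0 on the RNA axis for 49 members, from -0.21 (NCL), and on both sides of 0 on the RF axis, from -0.75 (SDAD1) to 0.82 (NAT10).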

How the data were processed

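Total RNA and RF libraries were made from each of 6 PANC-1 cultures, 12 libraries in all. The authors deposited raw counts per protein-coding gene in 1 table, after adapter and ribosomal RNA removal (RF), alignment to GRCh37 with HISAT2 and counting of unique alignments on exons with featureCounts. Per the study's methods the genome and its protein-coding gene annotation came from Ensembl. The versions of both tools, the release of the annotation and whether strand was used in counting are not given in the sources used here, so reads of members that overlap another gene could not be told apart. The deposited FPKM of genes and isoforms came from cuffnorm (Cufflinks 2.2.1) on the total RNA. Columns of the same table with the authors' own TE values, fold changes and p-values were not used, nor were the scaled cuffnorm counts. A spreadsheet had rewritten some gene names, and the Ensembl identifier was used for these. The labels call the cultures biological replicates and join the RF and RNA library of a culture by a number. The p-values measure the spread between these cultures.

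Genes with at least 10 RF and 10 RNA counts summed over the libraries were tested, 13329 in all, among them all 51 members. Counts were scaled by TMM within library type and fitted with edgeR 4.0.16 (R 4.3.3) by the robust quasi-likelihood F test, for RF alone, RNA alone and, as the interaction of library type and treatment, TE. P-values were adjusted over all tested genes (Benjamini-Hochberg, threshold 0.05). CPM were scaled to the TMM-adjusted library size, and log2 TE per culture is log2 CPM of RF minus log2 CPM of RNA with a prior count of 2. Single genes were compared with exact two-sided permutation tests over cultures (scipy 1.17.1). Alternatives used DESeq2 1.42.0, limma 3.58.1, other scalings and filters, a replicate block and leaving out each culture, and 1 of them, the raw CPM ratio per culture, was chosen after seeing the data. The fits were also run on simulated counts, and the outcome is not given here. The changes put into TE and RF there were larger than any fitted for a member. That run thus cannot show whether changes of the members' size in TE or RF would be called.

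Members, roles and lists were chosen with earlier results of these data known. Values in every culture are given for the member with the most RF counts in each role, for the 3 members with the smallest p in each direction of each comparison, and for members whose cultures did not overlap in TE. Other members are given by their fitted change or by counts, and a few counts of NOB1 and GAR1 were chosen after their values were seen. The 5′ ends came from GENCODE v44 on GRCh37. Promoters came from RefSeq on GRCh38.p14 and were matched by symbol for 44 of 51 members, with NOP58, NOLC1, RRP12, BOP1, RRP1B, RRS1 and DDX18 not matched. Gene coordinates in the text are on GRCh37.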

Additional observations from a re-analysis of the deposited data

How the results depend on the processing

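Across 16 fits of TE, 12 of RF and 15 of total RNA, only DESeq2's Wald test on TE called members (adjusted p under 0.05). It called 5 members (3 lower, 2 higher), against 4.55% and 5.14% of all genes, and the cause was not tested. At an unadjusted p it had 7 lower and 3 higher. Shares of all genes at an unadjusted p are not given for the alternatives, so such counts are not read as results about the members. The number of members lower in TE at an unadjusted p was 0 in edgeR, 1 with a minimum of 100 RF counts (which leaves out RIOK1), 2 with TMM over all libraries and 0 to 4 when 1 culture was left out. The number higher was 1 with voom and 0 to 3 when 1 culture was left out. Members fitted lower in TE were 24 to 32 when 1 culture was left out and 29 with TMM over all libraries. The median change in TE was between -0.09 and 0.02 when 1 culture was left out and -0.06 with TMM over all libraries, which moved the median of all genes from -0.06 to -0.14. The fitted TE changed sign for FBL (-0.042 with TMM over all libraries, -0.065 to 0.12 when 1 culture was left out), TSR1 (-0.060, and -0.11 to 0.17), GNL2 (-0.16 to 0.39) and DDX56 (-0.17 to 0.20). For RF, 1 member was lower at an unadjusted p with a minimum of 1 count, 0 to 2 when 1 culture was left out, and the median was then between -0.18 and -0.048. For total RNA, between 44 and 50 members were fitted lower in every fit, and 37 members were fitted lower in all of them. Those lower at an unadjusted p were 7 in the 3 fits on FPKM and 7 to 14 when 1 culture was left out, with a median of -0.078 to -0.038. The sign turned for MYBBP1A (-0.013 with a minimum of 1 count, -0.033 and -0.034 in the fits on FPKM, -0.012 to 0.021 when 1 culture was left out) and for TBL3 (-0.013 and -0.014 in the fits on FPKM). Counting any protein-coding isoform with an FPKM value gave 7 members with the TOP motif. The deviations of same-numbered DMSO and rapamycin libraries correlated by -0.12, -0.06 and -0.07 (RF) and -0.11, -0.12 and -0.22 (RNA). No library correlated best with its own number, but 3 cultures per treatment cannot settle whether replicate numbers pair the cultures. The RF and RNA libraries of the same culture correlated by -0.096 to 0.008, so their join in log2 TE rests on the labels. With the replicate block, 0 members were called in edgeR, 24 were fitted lower in TE (median 0.03), 29 in RF (median -0.08) and 49 in total RNA (median -0.06, 12 at an unadjusted p), and the TE of DDX56 was 0.0051. With the block by culture, 26 were fitted lower in TE, with a median of -0.01. The raw CPM ratio, added after seeing the data, also separated 4 members in TE, and its share over all genes is not given here. Of the values that answer a comparison, 254 stayed within the spread or within 1.5 times and 29 moved. The biological coefficient of variation was 54.9% for RF and 5.31% for total RNA, and 24.4% for TE, where both library types share 1 value. The RF libraries are also the shallow ones, and how much of the spread comes from depth was not tested.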
